A study of Saccharomyces cerevisiae with 24 samples.

Results

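Messenger RNA was measured for the genes of the small subunit processome, the particle that forms on the ribosomal RNA precursor in the nucleolus and from which the small ribosomal subunit is made. The 42 genes were taken by symbol from a list of processome subunits and factors, drawn up with earlier results of these data known but with no threshold on measured levels, and are 42 of the 6612 transcripts quantified. All 42 were above 0 in all 24 libraries and all passed the filter on low values, with 6357 genes tested in all.

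Poly(A) RNA was sequenced from budding yeast (Saccharomyces cerevisiae) strains that differ in Sfp1, a zinc finger activator of ribosomal protein and ribosome biogenesis genes that is acetylated by the NuA4 complex. In K655/657Q (SFP1-K655Q-K657Q-MYC) the lysines that NuA4 acetylates (K655 and K657) are glutamines, which mimic acetylated lysine, in K655/657R (SFP1-K655R-K657R-MYC) they are arginines, which cannot be acetylated, and WT carries SFP1-MYC. By the labels, all 3 strains carry the Myc tag and the KanMX marker and share the alleles can1-100, ura3-1, trp1-1, ade2-1 and mutant alleles of LEU2 and HIS3, so WT here is a tagged strain. The study's strain list instead has its tagged K655/657R and K655/657Q strains in parents without can1-100 or ade2-1. Which holds for these libraries cannot be told. Each was sampled in YPD, which holds 2% glucose, in 2% raffinose (0 min), and at 15 and 30 min after glucose was added back to 2%, with 2 libraries per strain and condition. By the study's methods, the raffinose cells were grown in YPD, washed and moved to raffinose for a generation before glucose was added. Separate cultures are not stated in the labels, so that p-values measure the spread between these libraries, which may be technical. The second 30 min K655/657R library stood apart, with a root mean square difference from its partner of 0.75 on the log2 scale over all genes, against 0.16 to 0.24 in the other 11 pairs. It was left out of the tests, so that 30 min K655/657R has values but no test.

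The processome assembles while the precursor is still being transcribed. The UTP-A complex binds the 5′ end of the precursor, UTP-B and the U3 small nucleolar RNP follow, U3 pairs with the precursor, and GTPase, helicase and acetyltransferase factors then act as the particle is cleaved and becomes a pre-40S subunit. In growing yeast these genes are transcribed as part of the ribosome biogenesis regulon, whose promoters are known for the PAC element (bound by the repressors Dot6 and Tod6) and the RRPE element (bound by Stb3). The study also cites binding of Sfp1 in vitro to a motif that contains AAAATTTT, the RRPE core. Binding of Sfp1 to the promoters was not examined here.

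The promoters of the 42 genes were read from the RefSeq R64 genome over the 300 bases before each start codon and searched on both strands for GATGAG (the PAC core), AAAATTTT (the RRPE core, its own reverse complement) and CGGGTAA (the core of the Reb1 site). PAC was found in 37 of 42 promoters (88.1%) against 19.1% of the 6001 promoters of the genome, RRPE in 31 (73.8%) against 9.42%, and both in 29 (69.0%) against 4.45%. Reb1 was found in 8 (19.0%) against 7.90%. In the 29 promoters with both, the nearest pair of cores spanned 16 to 48 bases with a median of 25, and PAC was the nearer of the pair to the start codon in 24. The stretches below show this arrangement for members used in the results, 5′ to 3′ on the gene's own strand, with the nearest pair of PAC (GATGAG, or CTCATC where it lies on the other strand) and RRPE in capitals and 12 bases on each side. In ENP2 further PAC cores, overlapping the one in capitals and each other, follow in lower case.
UTP10, chrX:217392-217437, minus strand: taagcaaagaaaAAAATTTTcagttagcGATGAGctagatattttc
PWP2, chrIII:223355-223394, minus strand: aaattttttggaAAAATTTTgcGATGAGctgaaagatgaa
UTP13, chrXII:581847-581897, minus strand: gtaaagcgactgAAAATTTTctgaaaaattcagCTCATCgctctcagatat
MPP10, chrX:438761-438807, plus strand: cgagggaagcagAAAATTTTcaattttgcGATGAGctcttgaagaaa
BMS1, chrXVI:143260-143303, minus strand: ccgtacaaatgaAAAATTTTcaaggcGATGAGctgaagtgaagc
ROK1, chrVII:182261-182302, plus strand: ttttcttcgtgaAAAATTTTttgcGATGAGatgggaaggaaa
UTP20, chrII:227440-227481, plus strand: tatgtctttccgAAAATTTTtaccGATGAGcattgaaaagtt
ENP2, chrVII:781650-781695, plus strand: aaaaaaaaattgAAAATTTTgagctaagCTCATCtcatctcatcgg
BUD21, chrXV:472589-472637, plus strand: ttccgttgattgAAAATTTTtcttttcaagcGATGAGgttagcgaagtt
KRR1, chrIII:23450-23492, minus strand: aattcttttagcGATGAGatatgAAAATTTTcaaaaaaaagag

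In 9 of these 10 the RRPE core precedes the PAC core, and KRR1 has the reverse order. The PAC cores lay 67 to 292 bases before the start codon (median 108) and the RRPE cores 33 to 209 (median 129). The 3' domain factors and the Bfr2-Lcp5-Enp2 group had both elements in all 8 members, while 3 genes (ESF2, UTP22 and UTP30) had neither core in this window.

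**Figure D1:**
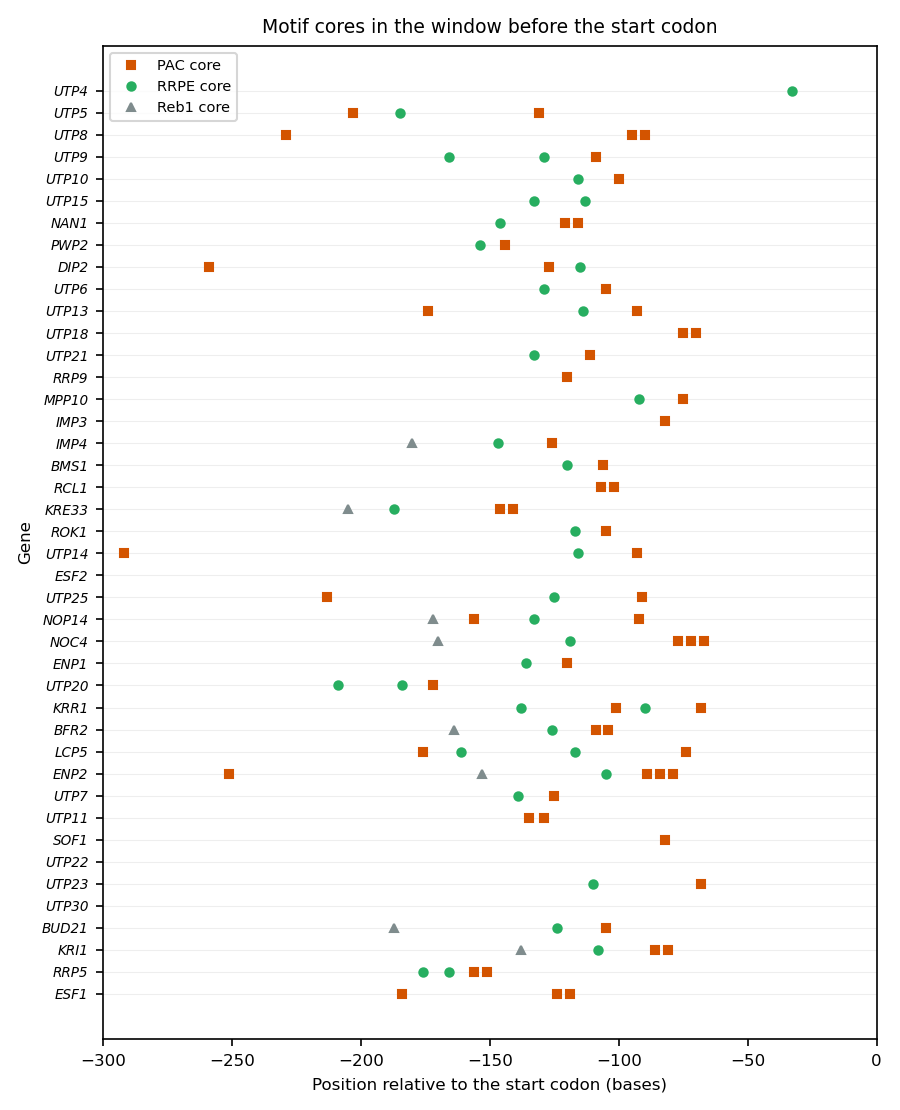
Positions of the PAC, RRPE and Reb1 cores in the 300 bases before the start codon of each of the 42 genes. The x axis is the distance from the start codon in bases (negative, upstream), each row is a gene, and each mark is the start of a match on either strand. In 24 of the 29 genes with both, the PAC mark of the nearest pair lies right of the RRPE mark, closer to the start codon.

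The 42 genes lie on 14 chromosomes, each with a single coding exon, and none shares a 31-base stretch with another gene or overlaps an annotated gene of the reference. Their coding length has a median of 1779 bases (552 in IMP3 to 7482 in UTP20), against 1194 for all protein-coding genes.

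Levels are given as TPM, the share of transcripts after correction for transcript length, divided by a size factor per library. They are shares of the sequenced mRNA, so that a lower level per cell and a larger pool of other mRNA cannot be told apart. The members had low to middling levels. In YPD the median member was at 10.0 and 10.2 scaled TPM in K655/657Q, 5.75 and 5.29 in K655/657R, and 5.86 and 5.68 in WT. The mean over the 42 genes of log2(scaled TPM + 1) was 3.54 ± 0.035 in K655/657Q, 2.83 ± 0.032 in K655/657R and 2.82 ± 0.049 in WT (SD, n = 2 each). The highest members in YPD were KRR1 and KRI1, which encode a pair of interacting factors. KRR1 was at 32.7 and 29.4 scaled TPM in K655/657Q, 20.9 and 22.7 in K655/657R and 17.4 and 19.2 in WT. Fold changes below are on the log2(scaled TPM + 1) scale, which understates the change of genes at a few TPM.

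**Figure D2:**
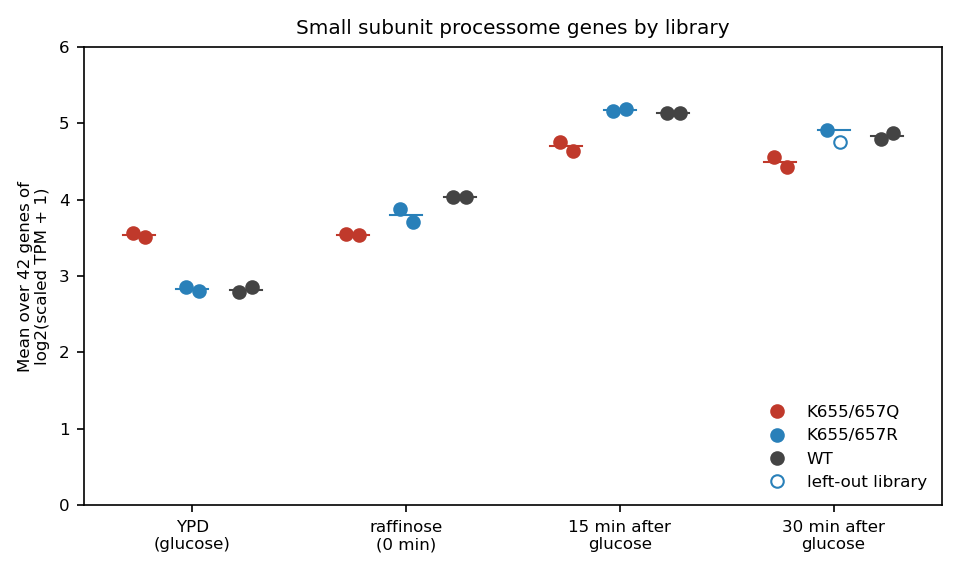
Mean over the 42 processome genes of log2(scaled TPM + 1) in each library. Points are libraries, short lines are the means of the libraries tested, and the open circle is the left-out library. K655/657Q libraries lie above the others in YPD (3.54 against 2.83 and 2.82) and below the others in the remaining conditions.

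In YPD, the acetyl-mimic strain had more of every processome mRNA. All 42 genes were higher in K655/657Q than in WT, with both K655/657Q libraries above both WT libraries for each, which was so for 34.6% of all genes tested. A gene was called where limma's p, adjusted by Benjamini-Hochberg over all genes, was under 0.05 and the change was at least 1.5-fold. By this rule 34 of 42 rose and none fell, against 6.69% of all genes called higher and 7.05% called lower. Percentages of all genes called are for both thresholds together. No share of all genes is given where members are counted at p alone. The median log2 fold change was 0.70 (range 0.29 to 1.20), against 0.01 over all genes. With 2 libraries a group an exact permutation test of a single gene cannot go below p = 0.333, and the calls rest on the spread shared across groups and genes in limma.

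The rise ran through every role group. All 7 UTP-A genes rose (median 0.75), and UTP4 was at 7.70 and 7.60 scaled TPM in K655/657Q, against 4.20 and 4.12 in WT (log2 fold change 0.75 ± 0.07 (SE), adjusted p = 7.5e-07, limma). UTP10, the largest UTP-A subunit, was at 9.73 and 10.2 in K655/657Q and 6.32 and 5.84 in WT (0.63 ± 0.09, adjusted p = 4.2e-05). The groups did not overlap for either gene. Of the 6 UTP-B genes 5 rose (median 0.68), with PWP2 at 8.42 and 8.60 in K655/657Q and 4.79 and 4.65 in WT, and UTP13 at 8.82 and 7.71 in K655/657Q and 4.18 and 4.67 in WT. All 4 genes of the U3 and Mpp10 group rose (median 0.66). RRP9, which encodes a U3-specific protein, was at 11.5 and 10.7 in K655/657Q and 6.52 and 6.86 in WT, and MPP10, the scaffold of the Imp3 and Imp4 proteins, at 12.6 and 12.4 in K655/657Q and 8.06 and 7.89 in WT. MPP10 passed the fold threshold by a small margin (0.59).

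Among the 7 enzymes and cofactors 6 rose (median 0.71). The GTPase gene BMS1 was at 12.1 and 11.3 in K655/657Q and 6.54 and 7.07 in WT, and its partner RCL1 at 13.8 and 14.5 in K655/657Q and 7.27 and 7.32 in WT. KRE33, the RNA acetyltransferase, had 11.8 and 10.6 in K655/657Q and 5.70 and 5.43 in WT (0.89 ± 0.07, adjusted p = 1.1e-07, limma), and the helicase gene ROK1 had 7.61 and 6.48 in K655/657Q and 4.10 and 4.11 in WT. The exception was UTP14, whose product activates a helicase of the particle, with a log2 fold change of 0.54 and an adjusted p of 0.0044.

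The largest rises were in 2 genes of different groups. UTP23, a factor tied to the snR30 small nucleolar RNA, was at 17.4 and 15.6 in K655/657Q and 7.18 and 6.10 in WT (1.20 ± 0.09, adjusted p = 1.0e-07, limma). ENP2, of the Bfr2-Lcp5-Enp2 group, was at 10.8 and 10.1 in K655/657Q and 3.81 and 4.21 in WT (1.19 ± 0.10, adjusted p = 2.7e-07). The smallest changes were those of UTP22, a UTP-C subunit, at 9.77 and 11.6 in K655/657Q and 8.82 and 8.25 in WT (0.29), and NOC4, the partner of Nop14, at 12.3 and 14.4 in K655/657Q and 9.98 and 10.7 in WT (0.34). Neither passed the fold threshold. UTP20, a large scaffold of the late particle, was at 5.63 and 5.68 in K655/657Q and 3.96 and 3.81 in WT (0.45), also below the threshold.

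SFP1 itself was at 16.4 and 14.6 scaled TPM in K655/657Q, 10.8 and 10.7 in K655/657R and 11.5 and 12.4 in WT in YPD. Its log2 fold change in K655/657Q was 0.35 (adjusted p = 6.9e-04, limma), under the fold threshold, and its part in the change of the processome genes was not tested. The number of members called depends on the constant added before the log and on the scaling, since it was 10 with a pseudocount of 5 and 42 when libraries were scaled to ACT1, the actin gene often used as a reference. The log2 fold change of ACT1 itself was -0.44.

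In the arginine strain no processome gene was called in YPD. There 19 genes were higher and 23 lower in K655/657R than in WT, the median log2 fold change was -0.02 (0.0029 with upper quartile scaling) and 0 of 42 were called by limma (8 at an unadjusted p under 0.05, 3 at an adjusted p under 0.05), against 1.07% of all genes called higher and 0.551% called lower. UTP4 was at 3.82 and 3.63 in K655/657R and 4.20 and 4.12 in WT, and KRE33 at 5.33 and 4.94 in K655/657R and 5.70 and 5.43 in WT. The largest differences were those of KRI1 (0.35) and ENP1 (-0.32), and neither reached a fold of 1.5.

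In raffinose, the sugar that yeast ferments more slowly, the processome mRNAs were higher than in YPD in K655/657R and WT cells but not in K655/657Q cells. In K655/657Q, 1 gene rose and 1 fell, against 11.5% of all genes called higher and 9.03% called lower, and the median log2 fold change was -0.01 (0.18 with TPM as deposited, where the median of all genes was 0.19, 0.04 with upper quartile scaling and 0.11 with ACT1 scaling). The K655/657Q count was 1 without the second YPD library. In K655/657R the median was 0.99 and 37 genes rose, against 17.5% called higher and 16.8% called lower. In WT, 40 of 42 genes rose, against 19% called higher and 18.5% called lower, and the median was 1.26. The response was tested directly as the difference between strains. It was smaller in K655/657Q than in WT for all 42 genes and past the thresholds for 41, against 9.39% of all genes called lower and 10.7% called higher, with a median difference of -1.22.

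**Figure D3:**
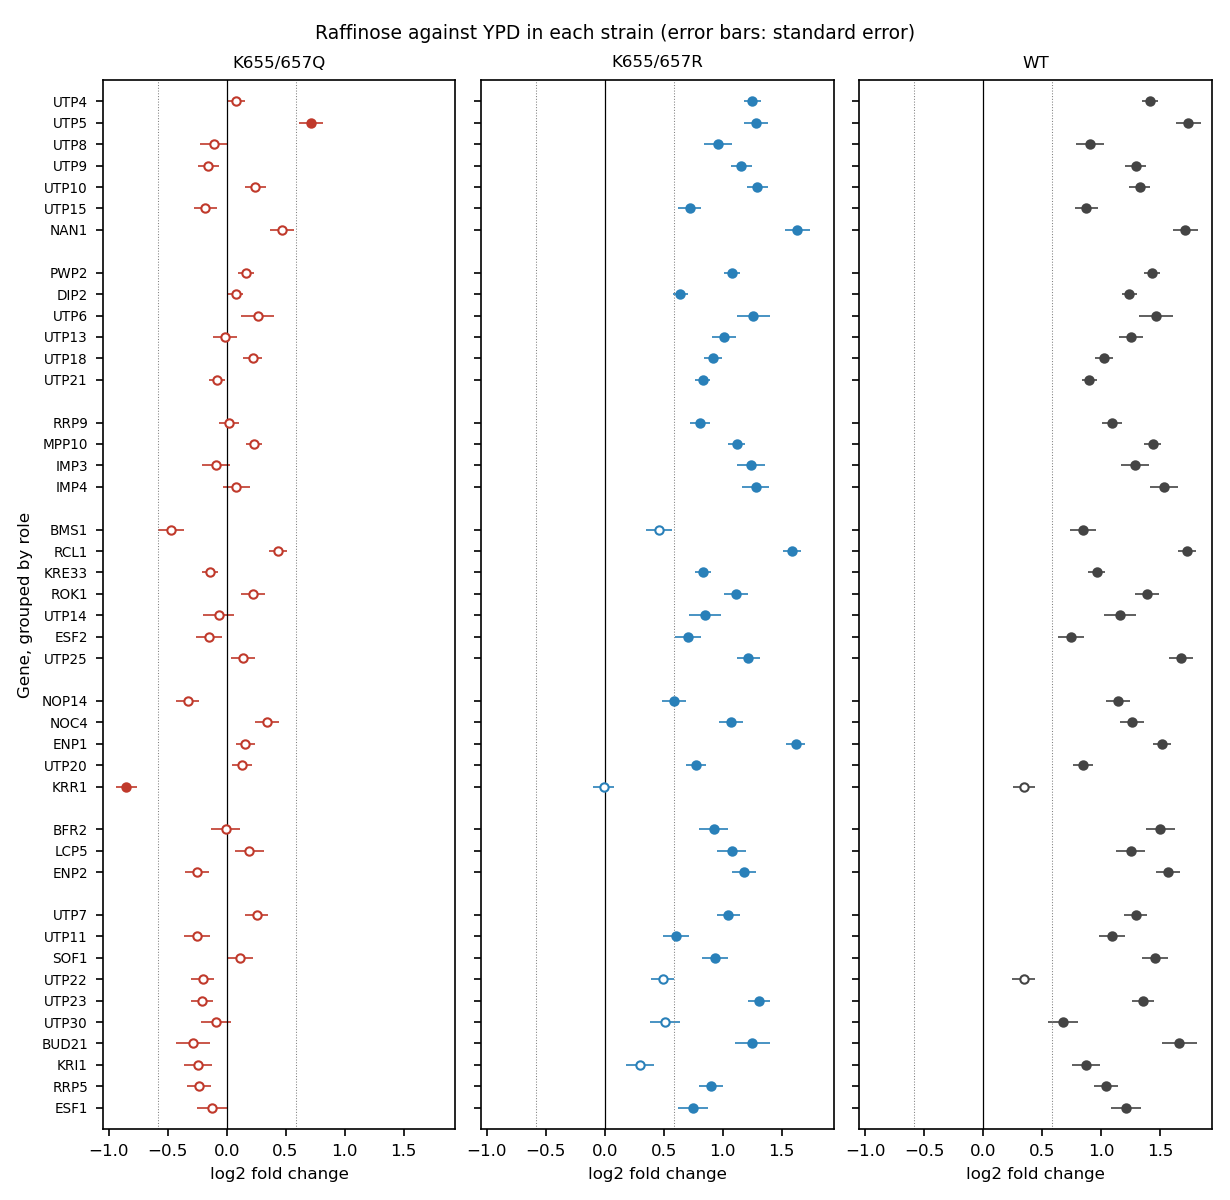
Log2 fold change of each gene in raffinose against YPD in K655/657Q, K655/657R and WT. Rows are genes grouped by role, filled points are called, error bars are standard errors, and dotted lines mark a fold of 1.5. The K655/657Q points scatter around 0, while the WT points, apart from UTP22 and KRR1, lie past the right dotted line.

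UTP4 gives the usual course. It was at 8.15 and 8.17 scaled TPM in raffinose and 7.70 and 7.60 in YPD in K655/657Q (log2 fold change 0.08). In K655/657R it was at 10.7 and 9.76 in raffinose and 3.82 and 3.63 in YPD (1.25), and in WT at 12.9 and 12.6 in raffinose and 4.20 and 4.12 in YPD (1.41). The difference between K655/657Q and WT responses was -1.33 ± 0.10 (SE, adjusted p = 1.4e-07, limma). The largest rises in K655/657R were those of NAN1 (1.63), of UTP-A, and ENP1 (1.62), which stays with the pre-40S particle after it leaves the nucleolus. In WT they were those of UTP5, also of UTP-A, at 18.2 and 18.1 in raffinose and 4.62 and 4.83 in YPD (1.74), and RCL1, at 27.7 and 25.4 in raffinose and 7.27 and 7.32 in YPD (1.73).

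UTP5 and KRR1 are the genes that were called in K655/657Q, in opposite directions. Others moved less, and 11 were called without the fold threshold. In every K655/657Q library 16 members were higher in raffinose and 17 lower, against 38.1% and 37.7% of all genes. UTP5 was at 14.6 and 16.0 in raffinose and 10.0 and 7.93 in YPD (0.72 ± 0.10, adjusted p = 2.9e-05, limma). KRR1 was at 16.4 and 17.0 in raffinose and 32.7 and 29.4 in YPD (-0.85 ± 0.09, adjusted p = 1.3e-06). KRR1 was also the exception in the other strains, with a log2 fold change of -0.01 in K655/657R and 0.34 in WT, below the fold threshold in both. In K655/657R the value was 0.41 with TPM as deposited and 0.58 with ACT1 scaling, where the medians of all genes were 0.42 and 0.57. The KRR1 response differed between K655/657Q and WT by -1.20, close to the median of the group. UTP22 had the smallest difference between these strains (-0.20 in K655/657Q and 0.34 in WT, a difference of -0.55) and was the 1 gene of 42 that did not pass as a difference.

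Among the 10 members chosen for their roles, the difference between the K655/657Q and WT responses to raffinose ran between -1.33 in UTP4 and -0.72 in UTP20. ENP2 and BUD21 had the widest differences. ENP2 was at 9.28 and 7.99 in raffinose and 10.8 and 10.1 in YPD in K655/657Q, but at 13.8 and 13.8 in raffinose and 3.81 and 4.21 in YPD in WT (difference -1.81 ± 0.15). BUD21, also called UTP16, was at 12.6 and 12.3 in raffinose and 15.7 and 15.0 in YPD in K655/657Q, but at 29.0 and 34.8 in raffinose and 7.79 and 11.2 in YPD in WT (difference -1.95 ± 0.21). For both genes the levels in K655/657Q were above WT in YPD and below WT in raffinose in every library.

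K655/657R responded somewhat less than WT in 39 of 42 genes, with a median difference of -0.22. The 1 call in 42 was near the share of all genes, 1.37% called lower and 1.1% called higher. That gene was DIP2, of UTP-B, at 9.29 and 8.54 in raffinose and 5.35 and 5.37 in YPD in K655/657R, and 12.2 and 11.9 in raffinose and 4.48 and 4.59 in YPD in WT (difference -0.60 ± 0.09, adjusted p = 0.0015, limma). Its call was lost without the second raffinose K655/657R library, and the count was 5 without the second YPD WT library, 3 without the first raffinose K655/657R library and 2 without the second YPD K655/657R or the first raffinose WT library.

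Compared within raffinose, each processome mRNA had a lower level in K655/657Q than WT, the reverse of YPD. Both K655/657Q libraries lay below both WT libraries for all 42 genes, which was so for 28.4% of all genes, the median log2 fold change was -0.49 (0.02 over all genes) and 37 passed the adjusted p. With the fold threshold 12 fell and none rose, against 2.17% of all genes called lower and 1.4% called higher. The called genes were UTP4, UTP6, MPP10, IMP3, BMS1, UTP14, UTP25, NOP14, LCP5, ENP2, BUD21 and ESF1, which come from all 7 role groups. The largest fall was that of BUD21, at 12.6 and 12.3 in K655/657Q and 29.0 and 34.8 in WT (-1.29 ± 0.15, adjusted p = 7.8e-05, limma), followed by UTP25, a helicase-like protein gene, at 5.80 and 6.08 in K655/657Q and 10.9 and 11.0 in WT (-0.78). The smallest difference was that of KRE33, at 9.59 and 10.4 in K655/657Q and 11.8 and 11.8 in WT (-0.22). The count was 1 with a pseudocount of 5 and 26 with ACT1 scaling.

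K655/657R lay between the other strains in raffinose, with a mean of log2(scaled TPM + 1) over the members of 3.54 ± 0.014 in K655/657Q, 3.79 ± 0.11 in K655/657R and 4.03 ± 0.0062 in WT (SD, n = 2 each). Each of the 42 genes had a lower mean in K655/657R, 34 of them below WT in every library against 18.6% of all genes, with a median of -0.24. No gene was called by limma (26 at an unadjusted p under 0.05, 2 at an adjusted p under 0.05), against 0.126% of all genes called higher and 0.0472% called lower. Those percentages are for both thresholds, and the share of all genes at p alone is not given. UTP6 had the largest difference (-0.46). MPP10 was at 20.5 and 17.6 in K655/657R and 23.7 and 22.9 in WT, and PWP2 at 12.5 and 11.3 in K655/657R and 15.4 and 13.6 in WT. The K655/657R libraries differed from each other by a median of 0.16 over the members.

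**Figure D4:**
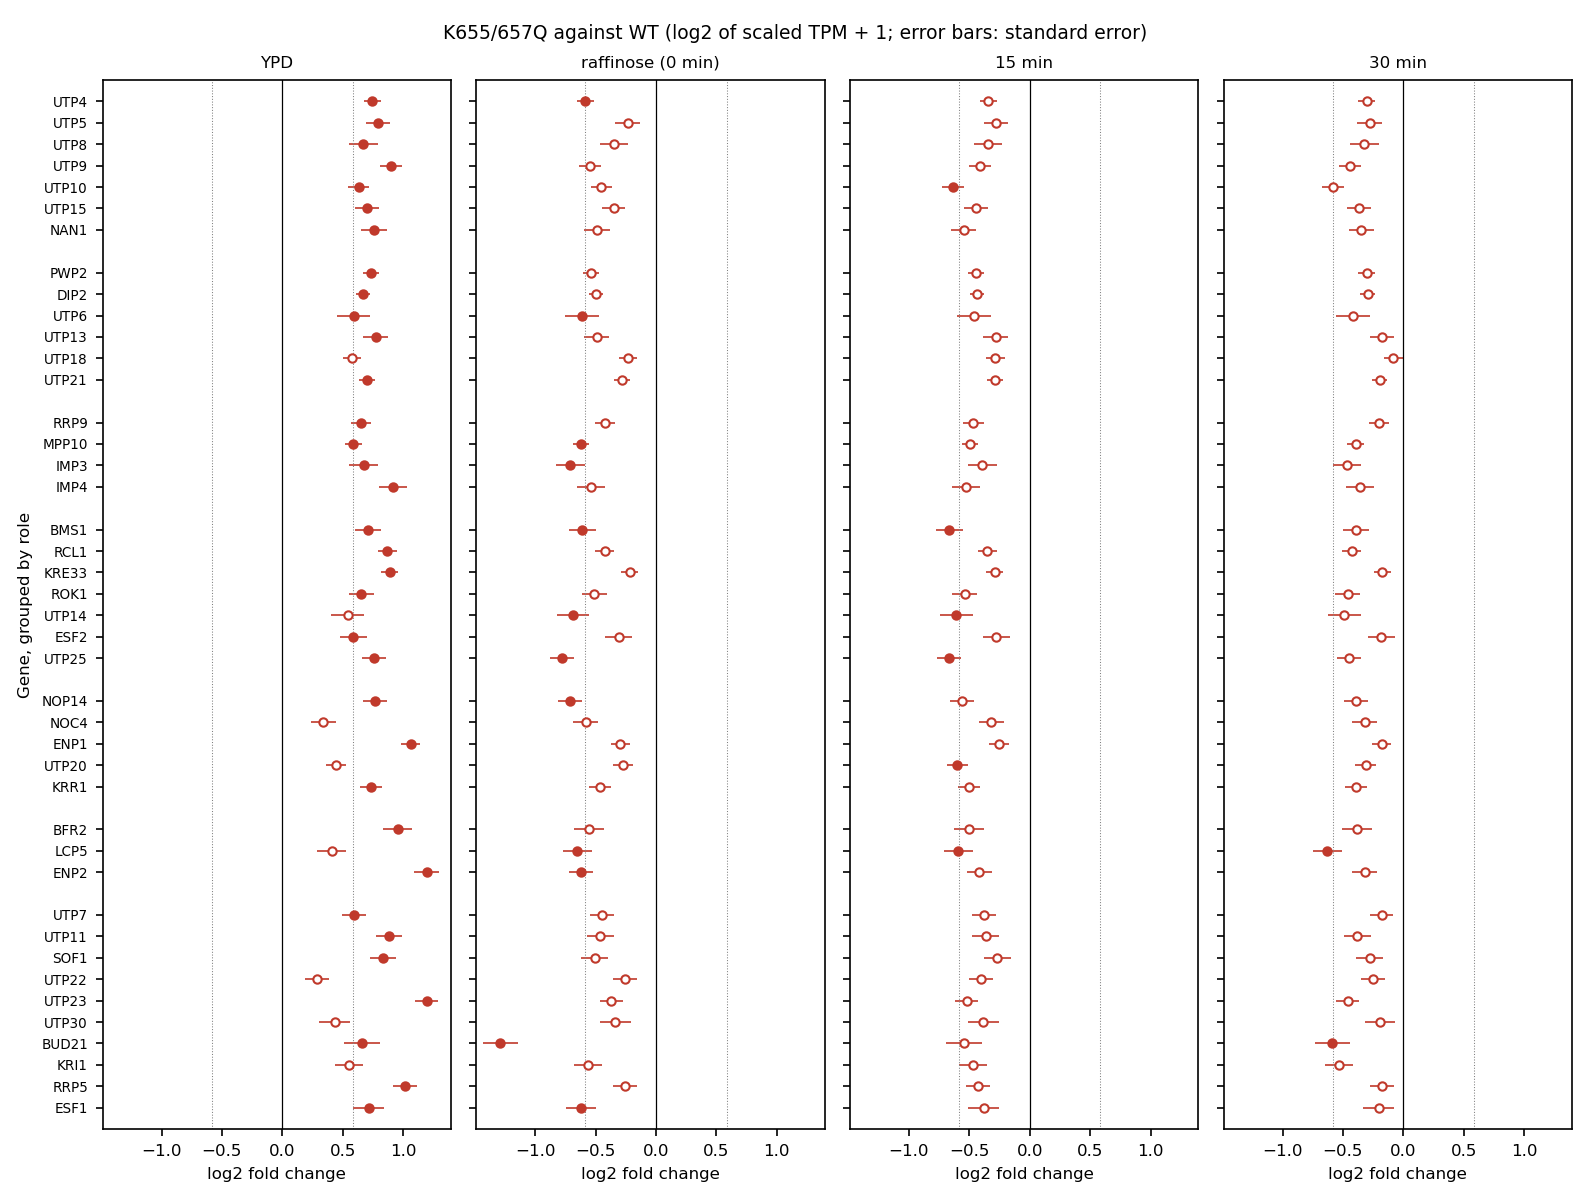
Log2 fold change of each gene in K655/657Q against WT in YPD, in raffinose and at 15 and 30 min after glucose addition. Rows are genes grouped by role, filled points are called, error bars are standard errors, and dotted lines mark a fold of 1.5. All 42 points lie right of 0 in YPD (median 0.70) and left of 0 in raffinose, at 15 min and at 30 min (medians -0.49, -0.43 and -0.34).

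When glucose was added to the cells shifted to raffinose, processome mRNAs climbed within 15 min in all 3 strains. From 0 to 15 min, 40 genes rose in K655/657Q (median log2 fold change 1.14), 41 in K655/657R (1.37) and 41 in WT (1.09), and none fell. Of all genes, 19.1% were called higher and 21.8% lower in K655/657Q, 22.4% higher and 24.4% lower in K655/657R, and 21.7% higher and 22.9% lower in WT. BFR2 and LCP5, which act in one subcomplex, were among the genes with the largest rises. BFR2 was at 8.02 and 6.81 at 0 min and 27.6 and 22.8 at 15 min in K655/657Q (1.64), at 9.95 and 8.22 and then 38.6 and 42.7 in K655/657R (2.05), and at 11.1 and 11.5 and then 37.5 and 34.6 in WT (1.59). UTP15 was the largest in WT (1.71), at 13.5 and 10.4 at 0 min and 40.9 and 41.3 at 15 min, followed by UTP18 (1.66), whose product brings the exosome to the particle. UTP9 had a log2 fold change of 1.63 in K655/657Q.

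The smallest changes in the pulse were those of UTP20 and ESF1, a pre-rRNA binding factor, in K655/657Q and K655/657R, and of ESF1 and UTP13 (0.64) in WT. UTP20 was at 6.21 and 6.36 at 0 min and 8.38 and 8.47 at 15 min in K655/657Q (0.37), and at 7.94 and 7.66 and then 12.1 and 14.6 in WT (0.70). ESF1 was at 32.2 and 35.1 at 0 min and 39.1 and 41.1 at 15 min in WT (0.24, adjusted p = 0.096, limma), while it had gained 1.21 between YPD and raffinose. KRR1 and UTP22, which had changed least with raffinose in WT, gained 1.18 and 1.24 in the pulse. KRR1 was at 23.6 and 23.3 at 0 min and 55.2 and 53.3 at 15 min in WT.

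**Figure D5:**
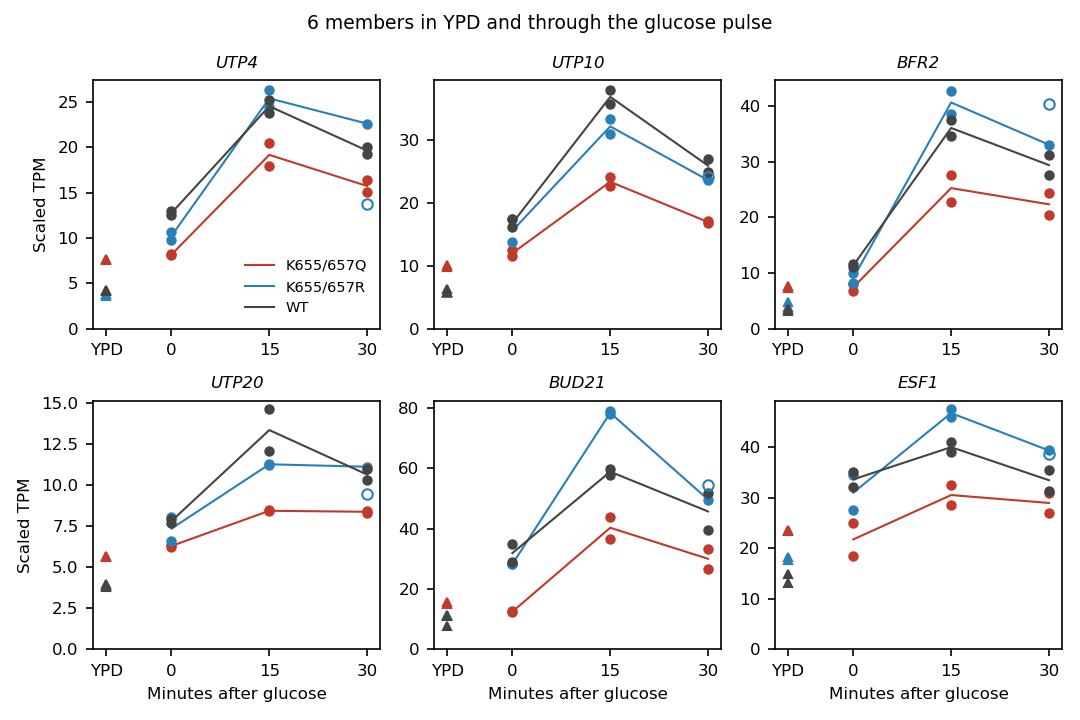
Scaled TPM of UTP4, UTP10, BFR2, UTP20, BUD21 and ESF1 in YPD (triangles) and at 0, 15 and 30 min after glucose addition to cells shifted to raffinose (circles, lines through the means). Colours are the strains K655/657Q, K655/657R and WT, each mark is a library, and the open circle is the left-out 30 min K655/657R library. In YPD the K655/657Q triangles are the highest, and from 0 min on the K655/657Q line is the lowest in each panel.

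By 30 min most of the median gain was kept. From 0 to 30 min 37 genes rose in K655/657Q (median 0.96, against 17.1% of all genes called higher and 21.3% called lower) and 31 in WT (median 0.81, against 20.2% called higher and 22.3% called lower). The WT count was 18 with TPM as deposited. UTP15 had the largest gain in both strains, at 27.6 and 27.5 at 30 min in K655/657Q and 36.8 and 35.0 at 30 min in WT (1.52 in WT). The smallest changes in WT were those of ESF1 and UTP7. ESF1 was at 32.2 and 35.1 at 0 min and 31.4 and 35.6 at 30 min, so it kept no gain. UTP7 was at 16.7 and 19.0 and then 22.3 and 23.1. In K655/657Q the smallest were those of UTP20 and ESF1. Between 15 and 30 min 40 of 42 genes were lower in each strain, by a median of -0.18 in K655/657Q (-0.08 with TPM as deposited, -0.03 with upper quartile scaling and -0.04 with ACT1 scaling) and -0.30 in WT, and 37 in WT were lower in both libraries against 35.7% of all genes. A single call was made by limma, UTP22 in WT (-0.67), at 26.2 and 28.9 at 15 min and 16.8 and 17.1 at 30 min, against 5.79% of all genes called lower and 2.91% called higher in WT, and the WT count was 2 without the first 15 min library. There were 0 calls in K655/657Q (22 at an unadjusted p under 0.05), against 6.4% called lower and 2.19% called higher. In the 30 min K655/657R library that was kept, UTP4 was at 22.6, BMS1 at 26.0 and KRE33 at 30.4, while the left-out library had 13.7, 26.9 and 39.7.

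The 15 min responses were compared between strains in the same model. Against WT, the K655/657Q response differed by a median of 0.06 (26 genes higher, 16 lower; -0.01 with a pseudocount of 5 and -0.03 without the first 15 min K655/657Q library) with 1 call, against 1.29% of all genes called higher and 1.67% called lower. That gene was BUD21, at 12.6 and 12.3 at 0 min and 43.9 and 36.7 at 15 min in K655/657Q, and at 29.0 and 34.8 and then 60.0 and 57.9 in WT (difference 0.75 ± 0.21, adjusted p = 0.049, limma). BUD21 was the member furthest below WT at 0 min. Its call was lost when any 1 of 7 libraries was left out (each of the 8 compared other than the second 15 min K655/657Q library) and under 7 other settings. The 30 min response of K655/657Q differed from WT by a median of 0.15. The median was 0.39 with TPM as deposited and 0.30 with ACT1 scaling, where the medians of all genes were 0.23 and 0.15. There were 0 calls by limma (9 at an unadjusted p under 0.05), against 1.12% of all genes called higher and 2.93% called lower.

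The 15 min response of K655/657R was larger than that of WT in 38 of 42 genes, by a median of 0.28. With ACT1 scaling the median was 0.51, where the median of all genes was 0.19. The response of ACT1 itself differed by -0.25 in the main fit. There were 0 calls by limma (22 at an unadjusted p under 0.05, 8 calls with ACT1 scaling), against 0.0157% of all genes called higher and 0.126% called lower. UTP11 differed most (0.65 ± 0.16, adjusted p = 0.073). In level at 15 min K655/657R differed from WT by a median of 0.04 (-0.03 with TPM as deposited), and no gene of the 42 or of the 6357 was called (3 of the 42 at an unadjusted p under 0.05). Short genes tended to be the higher ones in K655/657R: over the 42 members the log2 fold change at 15 min had a Spearman correlation of -0.601 with coding length, and over 5788 genes -0.429. The points share the same 4 libraries, and the part of coding length in the difference was not tested. UTP10 (5310 coding bases) was at 33.3 and 31 in K655/657R and 35.8 and 37.9 in WT, and BUD21 (645 coding bases) at 79.0 and 77.9 in K655/657R and 60.0 and 57.9 in WT.

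K655/657Q stayed below WT after the pulse. At 15 min all 42 genes were lower in every K655/657Q library than in WT, which was so for 29% of all genes, with a median of -0.43. Of them 6 fell past both thresholds, against 2.49% of all genes called lower and 2.27% called higher, namely UTP10, BMS1, UTP14, UTP25, UTP20 and LCP5. UTP25 was at 15.2 and 13.9 in K655/657Q and 24.1 and 23.3 in WT (-0.67 ± 0.10), and BMS1 at 17.4 and 14.0 in K655/657Q and 26.0 and 24.7 in WT (-0.66 ± 0.11). The count was 14 without the first 15 min K655/657Q library and 3 without the second. At 30 min the median was -0.34 (-0.11 with TPM as deposited, where the median of all genes was 0.23) and 2 genes fell, LCP5 (-0.63) and BUD21 (-0.59), against 2.8% of all genes called lower and 1.1% called higher. LCP5 was at 19.9 and 16.5 in K655/657Q and 27 and 30.3 in WT. The 30 min count was 6 without the first K655/657Q library of that time, 0 without the second, 4 without the first WT library and 1 without the second.

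The changes were set beside the promoter elements as a description. In YPD the K655/657Q log2 fold change had a median of 0.73 in the 29 genes with both cores, 0.69 in the 8 with PAC alone, 0.72 in the 2 with RRPE alone (UTP4 and UTP15) and 0.43 in the 3 with neither. In raffinose against YPD in WT the medians were 1.29 with both, 1.15 with PAC alone, 1.14 with RRPE alone and 0.68 with neither. At 15 min after glucose in WT they were 1.06 with both, 1.14 with PAC alone, 1.30 with RRPE alone and 1.16 with neither. The median of the genes without either core was thus the lowest for strain and for medium but not for the pulse, and they are only 3. The ranges overlapped. For strain in YPD they were 0.29 to 0.59 with neither core and 0.34 to 1.20 with both. For medium in WT they were 0.34 to 0.75 with neither and 0.34 to 1.74 with both. ESF2, the cofactor of the helicase Dbp8, was at 9.43 and 9.76 in K655/657Q and 5.53 and 6.60 in WT in YPD and was called (0.59), while UTP30 was not (0.43), with 9.86 and 8.63 in K655/657Q and 5.28 and 8.15 in WT.

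A further 33 genes of the processome and of early 40S synthesis were counted for comparison. In YPD 22 rose in K655/657Q against WT and none fell (median 0.62), against 6.69% of all genes called higher and 7.05% called lower. In raffinose 6 fell and none rose (median -0.37), against 2.17% of all genes called lower and 1.4% called higher. In WT 23 rose in raffinose against YPD (median 0.83), against 19% of all genes called higher. From 0 to 15 min in WT 27 rose (median 0.89), against 21.7% of all genes called higher. The K655/657Q response to raffinose was smaller than in WT past the thresholds in 26, against 9.39% of all genes called lower. FAF1, an early 40S factor, had the largest difference between K655/657Q and WT in both media (1.39 in YPD and -0.84 in raffinose). The 4 casein kinase 2 genes in the list, CKA1, CKA2, CKB1 and CKB2, which act in many processes besides ribosome synthesis, were between -0.15 and 0.04 in K655/657Q against WT in YPD and were not called. Of the 33 promoters, 25 held PAC, 22 RRPE and 19 both, against 19.1%, 9.42% and 4.45% of the promoters of the genome.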

How the data were processed

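RNA-seq of 24 libraries was deposited as one table of TPM, which the authors made with kallisto 0.48.0 after trimming with fastp 0.23.2 against an R64 yeast transcriptome. The authors tested differences with DESeq2 on counts, which are not used here, so depth is unknown. The library kit is directional, and whether kallisto used strand is not given in the sources used here. Of 6612 transcripts 5917 matched the reference annotation, and overlap with the other 695 was not checked. TPM were divided by median-of-ratios size factors (0.805 to 1.15, and 0.562 in the left-out library), genes under a mean TPM of 1 were dropped, and log2(scaled TPM + 1) was fitted in limma 3.58.1 (R 4.3.3, eBayes with trend) over 23 libraries, with 11 residual degrees of freedom. Calls needed a fold of at least 1.5 and an adjusted p (Benjamini-Hochberg) under 0.05, the study's thresholds. The fit was tested on simulated data. Promoters were cut from the genome sequence with Python 3.11.15, since no promoter table was used, and figures were drawn with matplotlib 3.10.9. Members and lists were chosen with earlier results of these data known. Members named are 10 chosen by role (UTP4, UTP10, PWP2, UTP13, RRP9, MPP10, BMS1, KRE33, ROK1 and UTP20), the 2 largest rises and falls called in each comparison, those called against the majority, and the smallest changes where at least 30 were called. Others were named after their values were seen, as were the genes singled out for their promoters. Alternatives changed the pseudocount, filter, scaling, threshold, libraries fitted and replicate block.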

Additional observations from a re-analysis of the deposited data

Results flagged for a closer look

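The K655/657Q effect differed between raffinose and YPD, tested as an interaction in limma, in 41 of 42 genes, all called lower. Of all genes, 9.39% were called lower and 10.7% called higher. The log2 differences among the members named were -1.33 in UTP4, -1.08 in UTP10, -1.27 in PWP2, -1.26 in UTP13, -1.08 in RRP9, -1.21 in MPP10, -1.31 in BMS1, -1.10 in KRE33, -1.16 in ROK1, -0.72 in UTP20, -1.81 in ENP2 and -1.95 in BUD21. The K655/657R effect differed between raffinose and YPD in 1 of 42 genes, DIP2 (-0.60). That is near the share of all genes, 1.37% called lower and 1.1% called higher. This call was lost without the second raffinose K655/657R library, with a pseudocount of 5, with TPM as deposited and with all 24 libraries. The 15 min response differed between K655/657Q and WT in 1 of 42 genes, BUD21 (0.75, adjusted p = 0.049, limma). That is near the share of all genes, 1.29% called higher and 1.67% called lower. This call was lost when any 1 of 7 libraries was left out and under 7 of 11 other settings. No cause was tested for any of these.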

How the results depend on the processing

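No named gene that was called changed direction under any alternative run. The median over the members crossed 0 under at least 1 alternative for raffinose against YPD in K655/657Q (-0.01), for K655/657R against WT in YPD (-0.02) and at 15 min (0.04), and for the 15 min response of K655/657Q minus WT (0.06). With a pseudocount of 5 the members called were 10 in K655/657Q against WT in YPD, 1 in raffinose, 0 at 15 min and 0 at 30 min, 1 in raffinose against YPD in K655/657Q, and 0 for the K655/657R effect between media, for 30 against 15 min in WT and for the K655/657Q minus WT response at 15 min. With a pseudocount of 0.1 the K655/657R effect between media had 2. With TPM as deposited, which moved the median of all genes by 0.39 for raffinose against YPD in WT, the counts were 4 for raffinose against YPD in K655/657Q, 0 for the K655/657R effect, 18 for 30 against 0 min and 4 for 30 against 15 min in WT, 2 for the 30 min response of K655/657Q minus WT, 3 for K655/657Q against WT at 15 min and 0 at 30 min. Upper quartile scaling gave 0 for 30 against 15 min in WT, 0 and 1 for the K655/657Q minus WT responses at 15 and 30 min, and 3 and 0 for K655/657Q against WT at 15 and 30 min. ACT1 scaling gave 26, 14 and 1 for K655/657Q against WT in raffinose, at 15 min and at 30 min, 0 and 1 for the K655/657Q minus WT responses at 15 and 30 min, and 8 for the K655/657R minus WT response. Without the fold threshold the counts were 3 and 2 for K655/657R against WT in YPD and raffinose, 37, 38 and 28 for K655/657Q against WT in raffinose, at 15 min and at 30 min, 11 for raffinose against YPD in K655/657Q, 3 for the K655/657R effect, and 16 and 25 for 30 against 15 min in K655/657Q and WT. Without a filter the 15 min response of K655/657Q minus WT had 0, and with a mean TPM of at least 10 the 30 min response had 1. With all 24 libraries the K655/657R effect and the 15 min response of K655/657Q minus WT had 0. This response also had 0 when only the groups compared were fitted. The cause of these changes was not tested, beyond the pseudocount of 5, which by its construction compresses changes of genes at a few TPM.

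With each library left out in turn, the members called ran between 30 and 34 for K655/657Q against WT in YPD, 8 and 13 in raffinose, 3 and 14 at 15 min and 0 and 6 at 30 min. They ran between 1 and 2 for raffinose against YPD in K655/657Q, 34 and 38 in K655/657R and 39 and 40 in WT, 41 and 42 for the K655/657Q effect between media, 0 and 5 for the K655/657R effect, 1 and 2 for 30 against 15 min in WT, and 0 and 1 for each of the K655/657Q minus WT responses. Deviations of libraries with the same replicate number correlated at -0.353 to 0.307 over 55 group pairs. The correlation was above 0.1 in 7 of 15 pairs of conditions within a strain and in 3 of 10 pairs of strains within a condition. Whether replicate numbers mark paired samples cannot be told from these values, and the main fit did not include pairing. The replicate block gave 0 for the 15 min response of K655/657Q minus WT and changed no other count by over 1.5 times. Depth is unknown, so counting error could not be given, and 2 libraries a group limit the precision.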
